A study of Homo sapiens with 14 samples.

Results

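The 10 genes described here encode the 8 human SMAD proteins (SMAD1, SMAD2, SMAD3, SMAD4, SMAD5, SMAD6, SMAD7 and SMAD9) and the corepressors TGIF1 and TGIF2. They were chosen by gene symbol and not by any measured value. The deposited table lists 63140 genes, of which 18321 had enough reads to be tested, and all 10 were among those. The libraries are bulk RNA sequencing of HEK293T, an established line derived from human embryonic kidney and transformed further with SV40 large T antigen, taken 24 h after an RNA duplex had been transfected. The miR-34a-WT group (n = 5) received unmodified miR-34a, a p53-induced microRNA, as a duplex. The miR-34a-RS group (n = 4, replicates 1, 2, 3 and 5) received a duplex in which guide residues 13 and 14 were exchanged for rSpacer, a ribose-phosphate unit with no base. The control group (n = 5) received AllStars, a commercial negative control siRNA. The comparison of the modified with the unmodified guide addresses how much pairing outside the seed contributes to repression. All 3 groups therefore share the cell line, the transfection and the time, and no untransfected cells were analysed here. The labels do not say whether replicates came from separate cultures, and p-values therefore cover only the spread among these libraries, part of which may be technical.

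SMAD proteins carry signals of the TGF-β superfamily from the cell membrane to the nucleus. Activated type I receptors phosphorylate the receptor-regulated SMADs, with SMAD2 and SMAD3 serving mainly the TGF-β and activin branch and SMAD1, SMAD5 and SMAD9 the BMP branch, and these join the common partner SMAD4 on DNA. SMAD6 and SMAD7 are inhibitory SMADs, while the TALE homeobox proteins TGIF1 and TGIF2 bind SMAD2 and SMAD3 complexes and recruit histone deacetylases to them. In mouse osteoclast precursors, Tgif2 is a reported direct target of miR-34a.

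The pair of TGIF transcripts moved in opposite directions with either miR-34a duplex. TGIF2 fell to 36.01 ± 1.71 CPM (reads per M reads of the library, scaled by TMM) in miR-34a-WT cells (SD, n = 5) and to 34.6 ± 1.45 CPM in miR-34a-RS cells (SD, n = 4), against 68.4 ± 0.516 CPM in control cells (SD, n = 5). TGIF1 rose to 17.2 ± 1.56 CPM in miR-34a-WT cells (SD, n = 5) and to 14.7 ± 0.717 CPM in miR-34a-RS cells (SD, n = 4), against 11.3 ± 0.756 CPM in control cells (SD, n = 5). The SMAD transcripts moved much less, with log2 fold changes between -0.17 and 0.24 for miR-34a-WT against control and between -0.12 and 0.14 when miR-34a-RS was set against control. In the fit without pairs, none of the 10 genes passed the test between the miR-34a duplexes.

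The sequences that bear on these comparisons are the guide of miR-34a, as RefSeq lists it for hsa-miR-34a-5p (GRCh38.p14, chr1:9151735-9151756, minus strand), and its seed matches in the 3′ UTRs. The guide is shown first with the seed, bases 2 to 8 from its 5′ end, in capitals, and then with bases 13 to 16 in capitals, the stretch that holds both abasic positions of miR-34a-RS.
miR-34a guide, seed: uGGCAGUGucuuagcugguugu
miR-34a guide, bases 13 to 16: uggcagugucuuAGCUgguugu
The letters searched on the sense strand of each 3′ UTR were CACTGCCA (8mer), CACTGCC (7mer-m8), ACTGCCA (7mer-A1) and ACTGCC (6mer), each position being counted once as the longest of these forms it makes. AGCT, the complement of guide bases 13 to 16, was searched from 1 to 15 bases upstream of the base that would face guide base 8. The search used the longest annotated 3′ UTR of each gene in GENCODE 29, and 13611 tested genes had one of at least 20 bases. Of these, 6% had an 8mer as their best match, 11.7% a 7mer-m8, 6% a 7mer-A1, 11.4% a 6mer and 64.9% none, and 1.6% had an 8mer or 7mer-m8 with AGCT upstream.

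TGIF2 was the member with 8mer matches near its stop codon, at bases 90 and 608 of a 3′ UTR of 2519 bases. The stretches below are 30 bases of the GRCh38 transcript sequence ending at the match, with the match in capitals, and they are shown because they set TGIF2 beside the other members with a 7-base or 8-base match.
TGIF2, 8mer at base 90, chr20:36591499-36591528, plus strand: atacagagggttttctatggatCACTGCCA
TGIF2, 8mer at base 608, chr20:36592017-36592046, plus strand: tggtgagctgggaaggacccacCACTGCCA
SMAD4, 8mer at base 2995, chr18:51081440-51081469, plus strand: tacaaagataatgacaataaatCACTGCCA
SMAD2, 7mer-m8 at base 7477, chr18:47834343-47834372, minus strand: gtagcacatcagaggccttaacCACTGCCc
SMAD2, 8mer at base 25804, chr18:47816016-47816045, minus strand: tttcattctcaacctcctccctCACTGCCA
SMAD7, 7mer-m8 at base 887, chr18:48920478-48920507, minus strand: cggacttagaaaaccagctcagCACTGCCt
SMAD5, 7mer-A1 at base 2102, chr5:136179559-136179588, plus strand: atggttttagttctttcagatgaACTGCCA
SMAD3, 7mer-A1 at base 1461, chr15:67191974-67192003, plus strand: ttttgcagaacacagtagacagaACTGCCA
The 8mer of TGIF2 at base 90 lay in 3 of its 6 annotated transcripts with a 3′ UTR, and the one at base 608 in 5 of the 6. The second of these had AGCT 13 bases upstream, and the 7mer-m8 of SMAD7 had it 3 bases upstream. SMAD4 had its 8mer in 2 of 3 transcripts, and 6mers at bases 1711 and 4390, the first of them with AGCT 2 bases upstream. SMAD2 had 11 matches in all, but they began at base 5156 and its 8mer lay in 1 of 5 transcripts, whose annotated 3′ UTR runs for 32870 bases. TGIF1, SMAD1, SMAD6 and SMAD9 had no match of any form, and for SMAD1 the annotated 3′ UTR is only 145 bases long. The count of members with an 8mer or 7mer-m8, 4 of 10, was the same when every annotated transcript was searched.

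**Figure D1:**
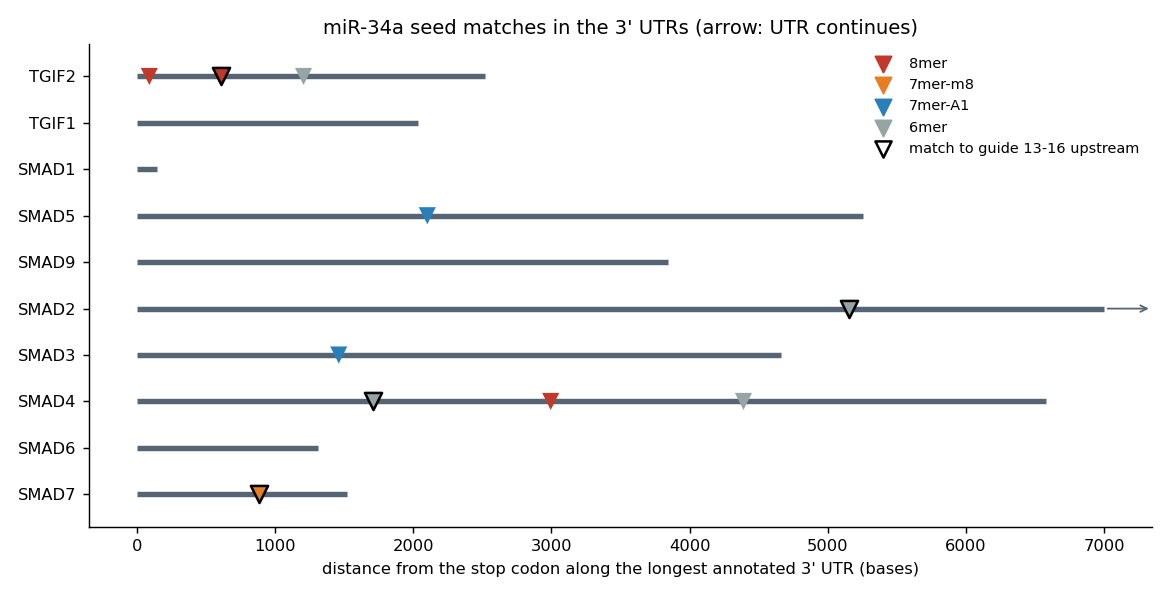
Seed matches of miR-34a along the longest annotated 3′ UTR of each of the 10 genes, with the distance from the stop codon in bases on the x axis, triangles coloured by the form of the match and a black edge where AGCT stands upstream. Of the matches of 7 or 8 bases, the pair in TGIF2 at bases 90 and 608 and that of SMAD7 at base 887 are the nearest to a stop codon, and the 3′ UTR of SMAD2 runs past the drawn range to 32870 bases.

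TGIF2 gave 37.5, 37.0, 33.7, 37.2 and 34.7 CPM in miR-34a-WT replicates 1 to 5, and 34.3, 36.6, 33.2 and 34.4 CPM in miR-34a-RS replicates 1, 2, 3 and 5. The control libraries gave 67.9, 69.0, 68.8, 68.2 and 67.9 CPM in replicates 1 to 5, so every miR-34a library lay far below every control library. These levels rest on 969 to 2395 reads per library. On the log2 scale the fold change was -0.93 (SE 0.044) for miR-34a-WT against control (edgeR's quasi-likelihood test, Benjamini-Hochberg adjusted p over the 18321 genes = 1.48e-14). It was -0.98 (SE 0.047) for miR-34a-RS against control (edgeR, adjusted p = 3.07e-14). In these comparisons, which share the control libraries, 1.96% and 1.3% of all tested genes had a lower fold change than TGIF2, and 7.56% and 5.73% of the 820 tested genes with an 8mer did. TGIF2 was 6th from the lowest, in either comparison, among the 65 tested genes with at least 2 8mer matches, of which 36 fell and 8 rose in each.

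The miR-34a groups overlapped in TGIF2. With miR-34a-RS set against miR-34a-WT its log2 fold change was -0.057, with a 95% interval from -0.16 to 0.042 (edgeR, adjusted p = 0.713). The interval does not show equal levels, but it holds no increase above 0.042 on the log2 scale with the abasic guide. Across the 4 replicate numbers that both groups share, the log2 CPM with miR-34a-RS minus that with miR-34a-WT was -0.13, -0.014, -0.022 and -0.014, and the blocked log2 fold change of -0.052 did not pass (edgeR, adjusted p = 0.55). The 223 tested genes with an 8mer or 7mer-m8 and AGCT upstream had a median log2 fold change of 0.024 in this comparison, against -0.003 for all tested genes. In bulk RNA, fewer cells that express a gene and less of its RNA per cell cannot be told apart.

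TGIF1, whose 3′ UTR has no seed match, gave 15.5, 16.5, 18.3, 19.3 and 16.4 CPM in miR-34a-WT replicates 1 to 5. In miR-34a-RS replicates 1, 2, 3 and 5 it gave 13.7, 14.8, 15.3 and 15.1 CPM, and in control replicates 1 to 5 it gave 10.6, 10.9, 10.7, 11.96 and 12.2 CPM. The 3 groups did not overlap, with miR-34a-WT highest, miR-34a-RS between and control lowest. Reads per library numbered 272 to 620. Against control, the log2 fold change was 0.61 (SE 0.067) for miR-34a-WT (edgeR, adjusted p = 4.86e-08) and 0.39 (SE 0.071) for miR-34a-RS (edgeR, adjusted p = 0.000103). Of all tested genes, 97.3% had a lower fold change than TGIF1 for miR-34a-WT and 93.2% for miR-34a-RS.

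TGIF1 was also the member that came nearest to a difference between the miR-34a duplexes. With miR-34a-RS set against miR-34a-WT its log2 fold change was -0.22, with a 95% interval from -0.37 to -0.082, and it missed the threshold in the fit of group means (edgeR, unadjusted p = 0.0034, adjusted p = 0.115). Libraries of these groups that share a number deviated together. With the replicate number as a block over all 14 libraries, control included, the value was -0.19 and passed (edgeR, adjusted p = 0.0421). It did not pass once the trend on GC content and length of the 3′ UTR was also removed from the blocked fit (-0.15; edgeR, adjusted p = 0.0885). TGIF1 was lower with miR-34a-RS in 4 of 4 pairs, by 0.17, 0.16, 0.26 and 0.12 in log2 CPM for replicates 1, 2, 3 and 5.

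The opposite changes altered the balance of the TGIF transcripts. Per kilobase of annotated exon, TGIF2 was 4.58 ± 0.517 times as abundant as TGIF1 in miR-34a-WT libraries (SD, n = 5) and 5.11 ± 0.356 times in miR-34a-RS libraries (SD, n = 4), against 13.2 ± 0.913 times in control libraries (SD, n = 5). The ratio ranged from 3.99 to 5.28 with miR-34a-WT and from 4.70 to 5.44 with miR-34a-RS, below the range of 12.1 to 14 in control. Its size rests on annotated exon lengths of 8222 bases for TGIF1 and 3784 bases for TGIF2, which may not all be used. The fold change of the ratio between groups does not depend on these lengths, as the same lengths enter every group. TGIF2 had the most CPM per kilobase of the 10 genes in control cells, and SMAD5 had the most in miR-34a-WT and miR-34a-RS cells.

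**Figure D2:**
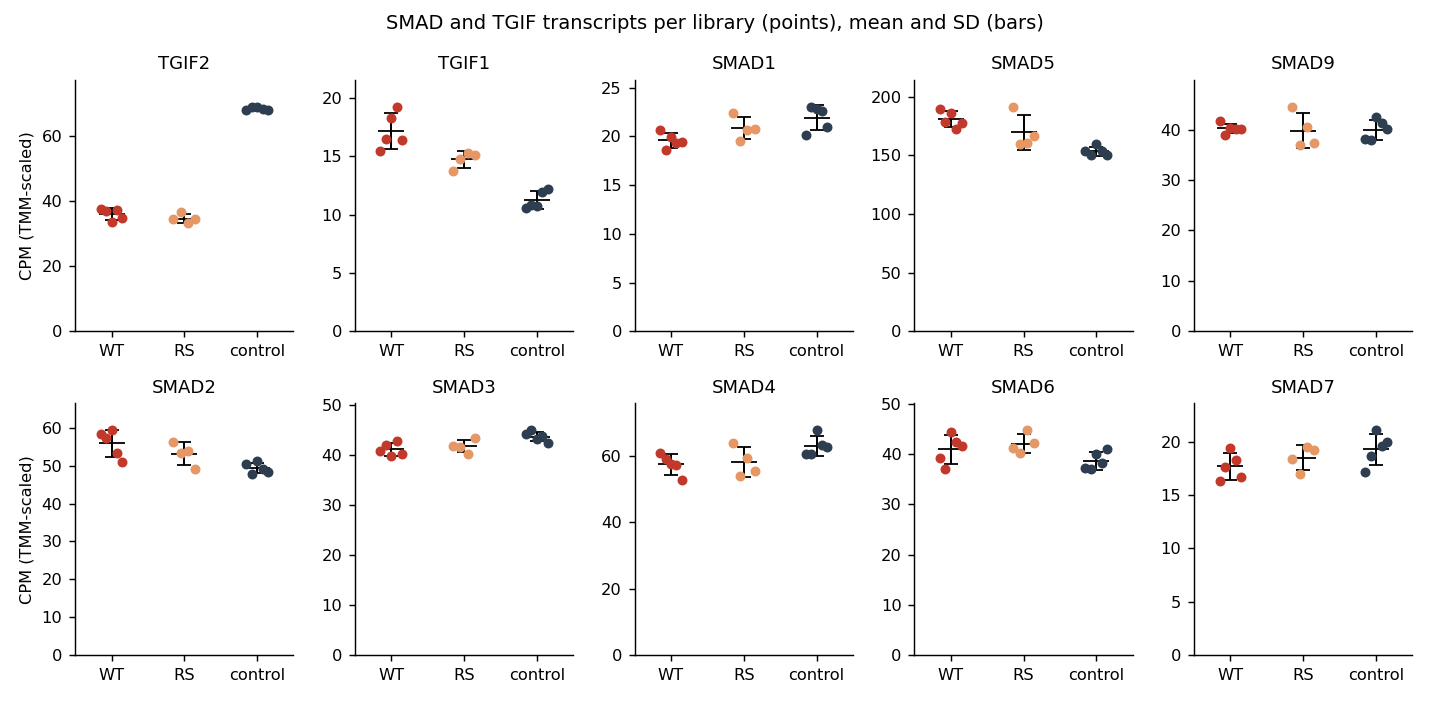
CPM scaled by TMM (y axis, from 0) of the 10 genes in each library, with miR-34a-WT (n = 5), miR-34a-RS (n = 4) and control (n = 5) from left to right, points for libraries and bars for the mean and SD. TGIF2 lies at 33.2 to 37.5 CPM in the miR-34a libraries and at 67.9 to 69.0 CPM in control, TGIF1 is higher in every miR-34a library than in control, and the SMAD genes shift by little.

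Against control, 6 of the 10 genes passed an adjusted p of 0.05 with miR-34a-WT, 3 of them higher (TGIF1, SMAD2 and SMAD5) and 3 lower (TGIF2, SMAD1 and SMAD4), where 40.2% of all tested genes passed, 18.9% higher and 21.3% lower. With miR-34a-RS, 3 of the 10 passed, TGIF1 and SMAD5 higher and TGIF2 lower, where 34.6% of all tested genes passed, 16.2% higher and 18.4% lower. Neither count was read as a result about the 10 genes as a group. The median log2 fold change of the 10 was -0.039 for miR-34a-WT and -0.032 for miR-34a-RS, and over all tested genes it was -0.019 and -0.014. In the comparison of miR-34a-RS with miR-34a-WT, 0 of the 10 passed in the edgeR fit of group means, and 1 (TGIF1) had an unadjusted p under 0.05. In that fit 1.56% of all tested genes passed, 1.03% higher and 0.535% lower. DESeq2 passed 0 of the 10 and 509 of 18321 genes. With the replicate block 1 (TGIF1) passed, where 1254 of 18321 genes did. With the block and the GC and length trend removed 0 passed, where 1438 of 13611 genes did. Groups did not overlap for SMAD5, TGIF1 and TGIF2 with miR-34a-WT against control (28.9% of all tested genes), for TGIF1 and TGIF2 with miR-34a-RS against control (27% of all tested genes), and for TGIF1 between the miR-34a duplexes (4.81% of all tested genes).

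**Figure D3:**
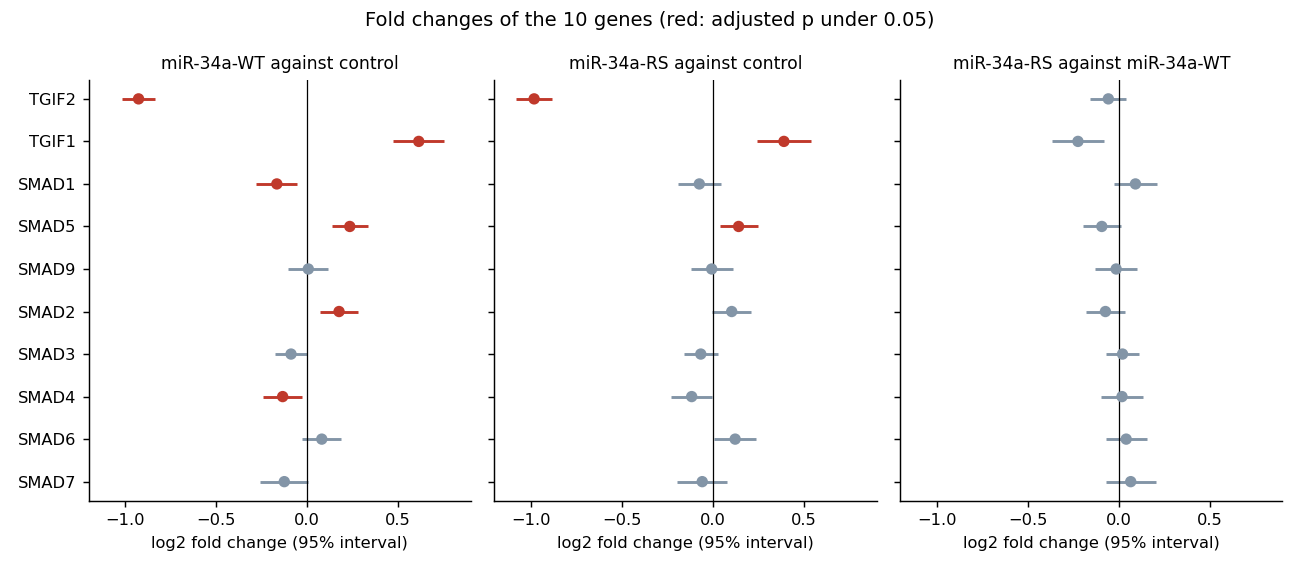
Log2 fold change (x axis) of each of the 10 genes in the 3 comparisons, with points for the edgeR estimate, lines for the 95% interval and red for an adjusted p under 0.05. TGIF2 lies at -0.93 and -0.98 and TGIF1 at 0.61 and 0.39 against control, the SMAD genes lie between -0.17 and 0.24, and no gene is red in the comparison of the duplexes.

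Among the SMADs of the BMP branch, SMAD5 rose. It gave 189.5, 178.4, 186.1, 172.3 and 177.6 CPM in miR-34a-WT replicates 1 to 5, and 191.4, 159.5, 160.4 and 166.4 CPM in miR-34a-RS replicates 1, 2, 3 and 5. In control replicates 1 to 5 it gave 154.0, 150.2, 159.8, 153.4 and 150.0 CPM. All miR-34a-WT libraries were above the control libraries, while miR-34a-RS replicate 2 was below control replicate 3 and miR-34a-RS replicate 1 stood above the rest of its group. SMAD5 had a log2 fold change of 0.24 (SE 0.047) for miR-34a-WT against control (edgeR, adjusted p = 0.000258) and 0.14 (SE 0.050) for miR-34a-RS against control (edgeR, adjusted p = 0.0294). With miR-34a-RS the call was lost without miR-34a-RS replicate 1 (log2 fold change 0.093; edgeR, adjusted p = 0.107) and without control replicate 5 (0.13; edgeR, adjusted p = 0.0565). SMAD5 carries a 7mer-A1, and 87.7% of tested genes with this form as their best match had a lower fold change with miR-34a-WT.

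SMAD1, with no seed match in its short annotated 3′ UTR, gave 20.6, 18.6, 19.97, 19.3 and 19.4 CPM in miR-34a-WT replicates 1 to 5, and 22.4, 19.6, 20.7 and 20.8 CPM in miR-34a-RS replicates 1, 2, 3 and 5. In control replicates 1 to 5 it gave 20.1, 23.1, 22.8, 22.6 and 21.0 CPM, and each miR-34a group overlapped with control. SMAD1 had a log2 fold change of -0.17 (SE 0.055) for miR-34a-WT against control (edgeR, adjusted p = 0.0177) and -0.074 for miR-34a-RS against control (edgeR, adjusted p = 0.347). The call with miR-34a-WT was lost without any one of control replicates 2, 3 and 4 and miR-34a-WT replicates 2 and 4 (edgeR, adjusted p = 0.0872, 0.0544, 0.0511, 0.0808 and 0.0599) and with no filter on low counts (edgeR, adjusted p = 0.0898). SMAD9 averaged 40.2 ± 0.977 CPM in miR-34a-WT cells (SD, n = 5), 39.8 ± 3.55 CPM in miR-34a-RS cells (SD, n = 4) and 39.99 ± 2.01 CPM in control cells (SD, n = 5). Its groups overlapped, its fold changes had no stable sign, and the 95% intervals ran from -0.10 to 0.12 for miR-34a-WT against control and from -0.12 to 0.11 for miR-34a-RS against control on the log2 scale. With miR-34a-RS set against miR-34a-WT, the log2 fold changes were 0.092 for SMAD1, -0.093 for SMAD5 and -0.014 for SMAD9, with 95% intervals from -0.027 to 0.21, from -0.20 to 0.01 and from -0.13 to 0.10. SMAD1 was higher with miR-34a-RS in 4 of 4 pairs of same-numbered libraries, by 0.05 to 0.12 in log2 CPM, and with the replicate block it gave 0.095 and did not pass (edgeR, adjusted p = 0.366).

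In the TGF-β and activin branch, SMAD2 gave 58.4, 57.5, 59.4, 53.5 and 51.1 CPM in miR-34a-WT replicates 1 to 5, and 56.3, 53.4, 53.9 and 49.1 CPM in miR-34a-RS replicates 1, 2, 3 and 5. Control replicates 1 to 5 gave 50.6, 47.9, 51.2, 49.2 and 48.5 CPM, so miR-34a-WT replicate 5 lay just within the control range and the other 4 above it. SMAD2 had a log2 fold change of 0.18 (SE 0.050) for miR-34a-WT against control (edgeR, adjusted p = 0.00569) and 0.10 for miR-34a-RS against control (edgeR, adjusted p = 0.132). The 8mer in the longest 3′ UTR places SMAD2 in the same class as TGIF2, and 89% of the genes of that class had a lower fold change than SMAD2 with miR-34a-WT. SMAD3 averaged 41.2 ± 1.28 CPM in miR-34a-WT cells (SD, n = 5), 41.8 ± 1.26 CPM in miR-34a-RS cells (SD, n = 4) and 43.7 ± 0.966 CPM in control cells (SD, n = 5). Its log2 fold changes of -0.087 for miR-34a-WT against control and -0.066 for miR-34a-RS against control did not pass (edgeR, adjusted p = 0.111 and 0.277). With miR-34a-RS set against miR-34a-WT, SMAD2 gave a log2 fold change of -0.073, with a 95% interval from -0.18 to 0.035, and SMAD3 one of 0.021, with an interval from -0.072 to 0.11. SMAD2 was lower with miR-34a-RS in 4 of 4 pairs, with differences of -0.14 to -0.052 in log2 CPM, and its blocked value of -0.082 did not pass (edgeR, adjusted p = 0.243).

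SMAD4, the common partner and the other member with an 8mer in several transcripts, gave 61.0, 59.1, 57.6, 57.4 and 52.7 CPM in miR-34a-WT replicates 1 to 5, and 64.1, 54.1, 59.4 and 55.5 CPM in miR-34a-RS replicates 1, 2, 3 and 5. Control replicates 1 to 5 gave 60.8, 60.6, 67.8, 63.4 and 62.9 CPM, and each miR-34a group overlapped with control. SMAD4 had a log2 fold change of -0.13 (SE 0.052) for miR-34a-WT against control (edgeR, adjusted p = 0.044). It was -0.12 (SE 0.055) for miR-34a-RS against control and did not pass (edgeR, adjusted p = 0.109), but passed without miR-34a-RS replicate 1 (-0.15; edgeR, adjusted p = 0.031). The call with miR-34a-WT was lost in DESeq2 (adjusted p = 0.0751), with DESeq2 size factors (0.0745), with no filter on low counts (0.128), and when any one of control replicates 2 to 5 or miR-34a-WT replicates 2 to 5 was left out (edgeR, adjusted p from 0.0596 without control replicate 5 to 0.149 without control replicate 3). Of the 820 tested genes with an 8mer, 58.3% had a lower fold change than SMAD4 with miR-34a-WT, and the median of that class was -0.22 on the log2 scale. In the comparison of miR-34a-RS with miR-34a-WT, SMAD4 gave a log2 fold change of 0.018, with a 95% interval from -0.096 to 0.13, and its sign turned to -0.022 without miR-34a-RS replicate 1 and to -0.013 without miR-34a-WT replicate 5.

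In the TMM-scaled fit of the group means with all libraries, neither inhibitory SMAD passed in any comparison. SMAD6 gave 39.3, 37.1, 44.4, 42.5 and 41.7 CPM in miR-34a-WT replicates 1 to 5, and 41.3, 40.2, 44.8 and 42.3 CPM in miR-34a-RS replicates 1, 2, 3 and 5, against 37.2, 37.0, 40.1, 38.3 and 41.1 CPM in control replicates 1 to 5. Its log2 fold change was 0.082 for miR-34a-WT against control and 0.12 for miR-34a-RS against control (edgeR, adjusted p = 0.229 and 0.0875). The value for miR-34a-RS passed without miR-34a-WT replicate 2 or 3 (edgeR, adjusted p = 0.0382 and 0.0482), with upper-quartile factors (0.14; edgeR, adjusted p = 0.0408) and with the GC and length trend removed (0.15; edgeR, adjusted p = 0.0202), and that for miR-34a-WT passed without miR-34a-WT replicate 2 (0.13; edgeR, adjusted p = 0.0482). SMAD7, with its 7mer-m8 and AGCT upstream, gave 16.3, 17.6, 19.4, 18.3 and 16.7 CPM in miR-34a-WT replicates 1 to 5, and 18.4, 16.9, 19.5 and 19.2 CPM in miR-34a-RS replicates 1, 2, 3 and 5, against 17.2, 18.7, 21.1, 19.6 and 19.95 CPM in control replicates 1 to 5. Its groups overlapped throughout. SMAD7 had a log2 fold change of -0.12 for miR-34a-WT against control and -0.058 for miR-34a-RS against control (edgeR, adjusted p = 0.124 and 0.539), and the first passed without control replicate 1 (-0.16; edgeR, adjusted p = 0.0477). Over the 22 alternatives to the fit its value with miR-34a-WT ran from -0.16 to -0.04, and in 20 of them it did not pass. In log2 fold change of miR-34a-RS over miR-34a-WT, SMAD7 gave 0.066, with a 95% interval from -0.072 to 0.20, and SMAD6 gave 0.041, with an interval from -0.072 to 0.15. SMAD6 was higher with miR-34a-RS in 4 of 4 pairs, by 0.013 to 0.12 in log2 CPM, and it gave 0.046 with the replicate block and did not pass (edgeR, adjusted p = 0.59).

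Levels can be compared between genes per kilobase of annotated exon. In control cells the order was TGIF2 at 18.1 ± 0.136 CPM per kilobase, SMAD5 at 17.0 ± 0.437, SMAD9 at 6.99 ± 0.350, SMAD4 at 4.81 ± 0.222, SMAD3 at 4.80 ± 0.106, SMAD6 at 4.53 ± 0.210, SMAD7 at 3.83 ± 0.289, SMAD1 at 3.62 ± 0.211, TGIF1 at 1.37 ± 0.0919 and SMAD2 at 1.36 ± 0.0379 (SD, n = 5). The spans of mean ± SD overlapped among SMAD4, SMAD3 and SMAD6, between SMAD7 and SMAD1, and between TGIF1 and SMAD2. Differences between genes were not tested. The exon length of SMAD2 includes the 3′ UTR of 32870 bases, which lowers its value per kilobase if that end is little used. The value of TGIF1 is likewise lowered if part of its 8222 annotated exon bases is little used. In miR-34a-WT cells SMAD5 reached 20 ± 0.766 CPM per kilobase (SD, n = 5) and in miR-34a-RS cells 18.7 ± 1.65 (SD, n = 4). TGIF2 stood at 9.52 ± 0.453 CPM per kilobase in miR-34a-WT cells (SD, n = 5) and at 9.15 ± 0.384 in miR-34a-RS cells (SD, n = 4), between SMAD5 and SMAD9 in the order.

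The 10 genes were also set among all tested genes with the same best seed match. The class with an 8mer had a median log2 fold change of -0.22 for miR-34a-WT and -0.20 for miR-34a-RS against control, with 52.2% and 50.1% of its genes lower, and the class with no match had 17.3% and 14% lower. TGIF2, SMAD4 and SMAD2 all belong to the 8mer class, and with miR-34a-WT they gave -0.93, -0.13 and 0.18. In the class with no match, TGIF1 stood above 96.8% of genes with miR-34a-WT and above 92.9% with miR-34a-RS, SMAD6 above 59.5% and 67.6%, SMAD9 above 46.1% and 42.4%, and SMAD1 above 21.5% and 30.1%.

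**Figure D4:**
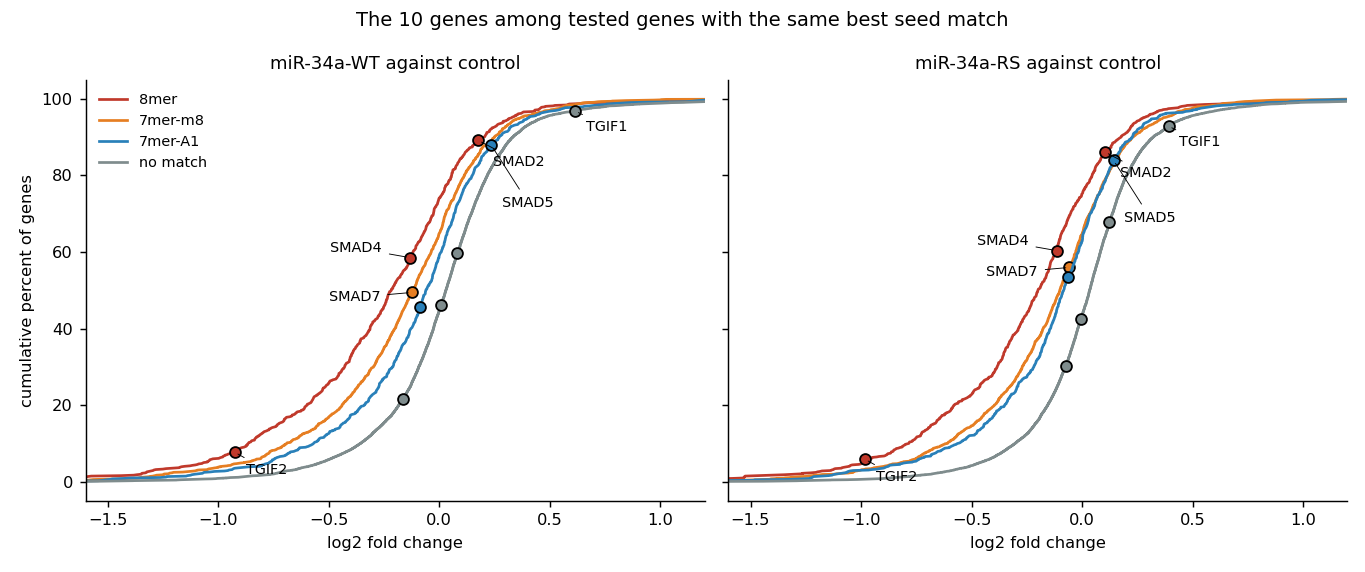
Cumulative percent of tested genes (y axis) by log2 fold change against control (x axis) for genes whose best seed match is an 8mer, a 7mer-m8, a 7mer-A1 or none, with miR-34a-WT on the left and miR-34a-RS on the right, and circles for the 10 genes on the curve of their class. TGIF2 sits in the lowest 7.56% and 5.73% of the 8mer curve, SMAD2 near the top of the same curve, and TGIF1 near the top of the curve with no match.

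The other genes of the pathway were read from 9 lists that hold 117 different tested genes, of which 54 passed with miR-34a-WT against control (19 higher and 35 lower) and 49 with miR-34a-RS against control (17 higher and 32 lower). Over all tested genes, 18.9% were higher and 21.3% lower with miR-34a-WT, and 16.2% were higher and 18.4% lower with miR-34a-RS. With the GC and length trend removed, 28 listed genes were higher and 35 lower with miR-34a-WT, and 30 were higher and 34 lower with miR-34a-RS. Of the 13611 genes in that fit, 4408 were higher and 3315 lower with miR-34a-WT, and 3956 were higher and 3137 lower with miR-34a-RS. With the replicate block added to that, 35 listed genes were higher and 39 lower with miR-34a-WT, and 35 were higher and 35 lower with miR-34a-RS. Of all 13611 genes, 4754 were then higher and 3584 lower with miR-34a-WT, and 4294 were higher and 3381 lower with miR-34a-RS. Over all tested genes the median log2 fold changes were -0.019 and -0.014, beside which each list's medians are given. Of the BMP ligands, which act upstream of SMAD1, SMAD5 and SMAD9, 7 of 10 tested fell and 0 rose with miR-34a-WT, and 6 fell and 0 rose with miR-34a-RS, where 21.3% and 18.4% of all tested genes fell. Their median log2 fold changes were -0.38 and -0.26. AMH, the anti-Müllerian hormone, averaged 29.3 ± 2.15 CPM in miR-34a-WT cells (SD, n = 5) and 29.5 ± 2.74 CPM in miR-34a-RS cells (SD, n = 4), against 52.7 ± 6.68 CPM in control cells (SD, n = 5), and its log2 fold changes were -0.84 (edgeR, adjusted p = 1.37e-09) and -0.83 (edgeR, adjusted p = 6.52e-09). BMP7, a ligand of kidney development, fell by 0.43 with miR-34a-WT and by 0.33 with miR-34a-RS on the log2 scale. BMP2 fell by 0.70 with miR-34a-WT and by 0.29 with miR-34a-RS, the second with an adjusted p of 0.034 in edgeR that was lost in DESeq2 (0.0656), with no filter on low counts (0.112) and without control replicate 3 or 4 or miR-34a-RS replicate 3 or 5 (edgeR, adjusted p = 0.0942, 0.0948, 0.066 and 0.143). BMP8A fell by 0.36 and by 0.33, but reads of the near-identical BMP8A and BMP8B may be split between them.

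Among 9 tested TGF-β and activin ligands, 1 rose and 1 fell in each comparison with control, where 40.2% of all tested genes passed for miR-34a-WT and 34.6% for miR-34a-RS, and the median log2 fold changes were 0 and 0.12. INHBB, which encodes an activin subunit and carries a 7mer-A1, averaged 0.987 ± 0.155 CPM in miR-34a-WT cells (SD, n = 5) and 0.936 ± 0.16 CPM in miR-34a-RS cells (SD, n = 4), against 2.17 ± 0.272 CPM in control cells (SD, n = 5). It fell by 1.15 with miR-34a-WT (edgeR, adjusted p = 5.17e-07) and by 1.22 with miR-34a-RS (edgeR, adjusted p = 5.96e-07) on the log2 scale. TGFB1 rose by 0.19 and 0.18, with adjusted p-values of 0.0225 and 0.0457 in edgeR. With miR-34a-WT the call was lost without control replicate 1 or miR-34a-WT replicate 4 (edgeR, adjusted p = 0.0695 and 0.0512). With miR-34a-RS it was lost without control replicate 1 or 5, miR-34a-RS replicate 2 or 3, or miR-34a-WT replicate 5 (edgeR, adjusted p = 0.113, 0.055, 0.0934, 0.259 and 0.053) and in a fit of the compared groups alone (0.054). TGFB1 overlaps HNRNPUL1 on the opposite strand, and reads of the overlap cannot be assigned without strand. TGFB2, at 1.08 CPM over all libraries, gave -0.26 and -0.39, and GDF11 gave -0.083 and 0.006, none of which passed in the fit of group means. GDF11 with miR-34a-RS passed with the replicate block and the GC and length trend removed (0.088; edgeR, adjusted p = 0.0413).

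Of 14 receptors and coreceptors, 3 rose and 3 fell with miR-34a-WT, and 0 rose and 6 fell with miR-34a-RS, with median log2 fold changes of -0.074 and -0.14. Among all tested genes 18.9% rose and 21.3% fell with miR-34a-WT, and 16.2% rose and 18.4% fell with miR-34a-RS. ACVR1B, the activin type I receptor that phosphorylates SMAD2 and SMAD3, averaged 39.9 ± 1.54 CPM in miR-34a-WT cells (SD, n = 5) and 48.2 ± 1.47 CPM in miR-34a-RS cells (SD, n = 4), against 56.4 ± 2.78 CPM in control cells (SD, n = 5). Its log2 fold change was -0.50 with miR-34a-WT (edgeR, adjusted p = 2.82e-09) and -0.23 with miR-34a-RS (edgeR, adjusted p = 0.000616), and miR-34a-RS was 0.27 above miR-34a-WT (edgeR, adjusted p = 0.00253). TGFBR2, the TGF-β type II receptor, fell by 0.26 with miR-34a-WT and by 0.31 with miR-34a-RS. ACVR2B, an activin type II receptor with an 8mer, gave -0.11 with miR-34a-WT, which did not pass in the fit of group means (edgeR, adjusted p = 0.124). It passed when the compared groups were fitted alone (edgeR, adjusted p = 0.0463), with the replicate block (0.00906) and with the block and the GC and length trend removed (-0.072; 0.0322). With miR-34a-RS, ACVR2B fell by 0.28 (edgeR, adjusted p = 0.000364). ACVR1C, which encodes the type I receptor ALK7 and also carries an 8mer, rose by 0.46 with miR-34a-WT (edgeR, adjusted p = 0.000862) and gave 0.086 with miR-34a-RS, a value that turned to -0.013 without miR-34a-RS replicate 1.

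Of 14 extracellular and membrane regulators, 1 rose and 6 fell with miR-34a-WT, and 1 rose and 4 fell with miR-34a-RS, with median log2 fold changes of -0.23 and -0.14. The shares of all tested genes that fell were 21.3% and 18.4%, and those that rose 18.9% and 16.2%. NOG, which encodes the BMP antagonist noggin, fell by 0.48 with miR-34a-WT (edgeR, adjusted p = 0.000629) and gave -0.14 with miR-34a-RS (edgeR, adjusted p = 0.339). BMPER, a secreted BMP-binding protein, fell by 0.44 and 0.51, and BAMBI, a pseudoreceptor and BMP target, fell by 0.30 and 0.27 with miR-34a-WT and miR-34a-RS. CRIM1, a membrane protein that binds BMPs, was the gene that rose, by 0.39 with miR-34a-WT and by 0.25 with miR-34a-RS on the log2 scale.

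Of 18 nuclear partners and corepressors, the group of proteins with which TGIFs and SMADs assemble, 5 rose and 4 fell with miR-34a-WT, where 40.2% of all tested genes passed, and 3 rose and 5 fell with miR-34a-RS, where 34.6% passed. Their median log2 fold changes were 0.024 and 0.045. HDAC1, a histone deacetylase that TGIF and SKI complexes contain, averaged 246.8 ± 7.74 CPM in miR-34a-WT cells (SD, n = 5) and 245.7 ± 6.36 CPM in miR-34a-RS cells (SD, n = 4), against 471.4 ± 10.8 CPM in control cells (SD, n = 5). It fell by 0.93 with miR-34a-WT (edgeR, adjusted p = 6.76e-16) and by 0.94 with miR-34a-RS (edgeR, adjusted p = 3.73e-15), and its best match is a 7mer-m8. SKI, a SMAD corepressor gene with a 7mer-m8, averaged 106.2 ± 8.82 CPM in miR-34a-WT cells (SD, n = 5) and 89.9 ± 6.76 CPM in miR-34a-RS cells (SD, n = 4), against 165.4 ± 9.16 CPM in control cells (SD, n = 5). It fell by 0.64 with miR-34a-WT (edgeR, adjusted p = 1.28e-09) and by 0.88 with miR-34a-RS (edgeR, adjusted p = 1.92e-11) on the log2 scale. SIN3A, the scaffold of a deacetylase complex, rose by 0.30 and 0.26, and ZEB2, a SMAD-binding zinc finger repressor, rose by 0.40 and 0.28. SIN3A overlaps a noncoding gene on the opposite strand that averaged 56.5 reads per library.

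Of 17 genes for SMAD modification and turnover, 7 rose and 2 fell with miR-34a-WT, and 6 rose and 2 fell with miR-34a-RS, with median log2 fold changes of 0.12 and 0.099. For comparison, 18.9% and 16.2% of all tested genes rose and 21.3% and 18.4% fell. PMEPA1, a membrane protein that binds SMAD2 and SMAD3 and dampens TGF-β signals, averaged 12.9 ± 0.569 CPM in miR-34a-WT cells (SD, n = 5) and 12.2 ± 0.475 CPM in miR-34a-RS cells (SD, n = 4), against 8.10 ± 0.44 CPM in control cells (SD, n = 5). It rose by 0.67 with miR-34a-WT (edgeR, adjusted p = 3.55e-09) and by 0.58 with miR-34a-RS (edgeR, adjusted p = 1.02e-07), though it shares 6.1% of its exon bases with the antisense gene NKILA. USP9X, a deubiquitinase of SMAD4, rose by 0.21 and 0.14, and PPM1A, a phosphatase of SMAD2 and SMAD3, by 0.26 and 0.15. With miR-34a-RS the call of USP9X was lost without control replicate 5 or miR-34a-RS replicate 1 (edgeR, adjusted p = 0.0687 and 0.0539), and that of PPM1A without control replicate 4 or miR-34a-RS replicate 1 or 3 (edgeR, adjusted p = 0.053, 0.0739 and 0.0609). WWP2, a ubiquitin ligase of SMADs, fell by 0.24 and 0.25, and once the trend on GC content and length of the 3′ UTR was removed its value with miR-34a-WT was -0.065 and did not pass (edgeR, adjusted p = 0.125).

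Of 16 TGF-β target genes, 1 rose and 8 fell with miR-34a-WT, and 2 rose and 6 fell with miR-34a-RS, with median log2 fold changes of -0.11 and -0.074, where 21.3% and 18.4% of all tested genes fell and 18.9% and 16.2% rose. CCN2, a matricellular protein gene, rose to 2.65 ± 0.136 CPM in miR-34a-WT cells (SD, n = 5) and to 2.77 ± 0.121 CPM in miR-34a-RS cells (SD, n = 4), against 1.24 ± 0.222 CPM in control cells (SD, n = 5), with log2 fold changes of 1.11 (edgeR, adjusted p = 4.97e-08) and 1.17 (edgeR, adjusted p = 4.28e-08). Its relative CCN1 fell by 0.52 and 0.46, the basement membrane collagen gene COL4A1 by 0.29 and 0.24, and TAGLN, a smooth muscle actin-binding protein gene, by 0.71 and 0.58. TAGLN shares 11.4% of its exon bases with PCSK7, which drew more reads, on the opposite strand. Of 12 BMP target genes, 0 rose and 6 fell with miR-34a-WT, and 0 rose and 3 fell with miR-34a-RS, with medians of -0.20 and -0.059, beside the same 21.3% and 18.4% of all tested genes lower. ID3, a helix-loop-helix inhibitor induced by SMAD1 and SMAD5, averaged 46.4 ± 3.41 CPM in miR-34a-WT cells (SD, n = 5) and 51.3 ± 5.05 CPM in miR-34a-RS cells (SD, n = 4), against 61.0 ± 6.43 CPM in control cells (SD, n = 5). Its log2 fold changes were -0.39 (edgeR, adjusted p = 6.19e-05) and -0.25 (edgeR, adjusted p = 0.0103), the second lost without miR-34a-RS replicate 1 (edgeR, adjusted p = 0.0658). MSX2, a homeobox gene, fell by 0.32 and 0.22, while GATA3 fell by 0.28 with miR-34a-WT and gave -0.20 with miR-34a-RS (edgeR, adjusted p = 0.0798), which passed without control replicate 5 or miR-34a-RS replicate 3 (edgeR, adjusted p = 0.0347 and 0.0355).

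Of 9 tested TALE homeobox relatives of the TGIFs, 1 rose and 0 fell with miR-34a-WT, and 4 rose and 1 fell with miR-34a-RS. Of all tested genes, 18.9% and 16.2% rose and 21.3% and 18.4% fell. Their median log2 fold changes were 0.043 and 0.17. PKNOX1, the one that fell, gave -0.15 (edgeR, adjusted p = 0.0131) and is named after its value was seen. PKNOX2 rose by 0.17 with miR-34a-WT and by 0.29 with miR-34a-RS on the log2 scale, the first lost without control replicate 1 or miR-34a-WT replicate 5 (edgeR, adjusted p = 0.0574 and 0.0912). PBX2 gave 0.12 with miR-34a-WT (edgeR, adjusted p = 0.0774), which passed in DESeq2 (0.0462), with DESeq2 size factors (0.0499), with the GC and length trend removed (0.000313) and without control replicate 1 or 2 or miR-34a-WT replicate 3 (edgeR, adjusted p = 0.0327, 0.0433 and 0.0236), and it rose by 0.28 with miR-34a-RS (edgeR, adjusted p = 0.000196). MEIS3 gave 0.028 with miR-34a-WT and rose by 0.23 with miR-34a-RS.

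**Figure D5:**
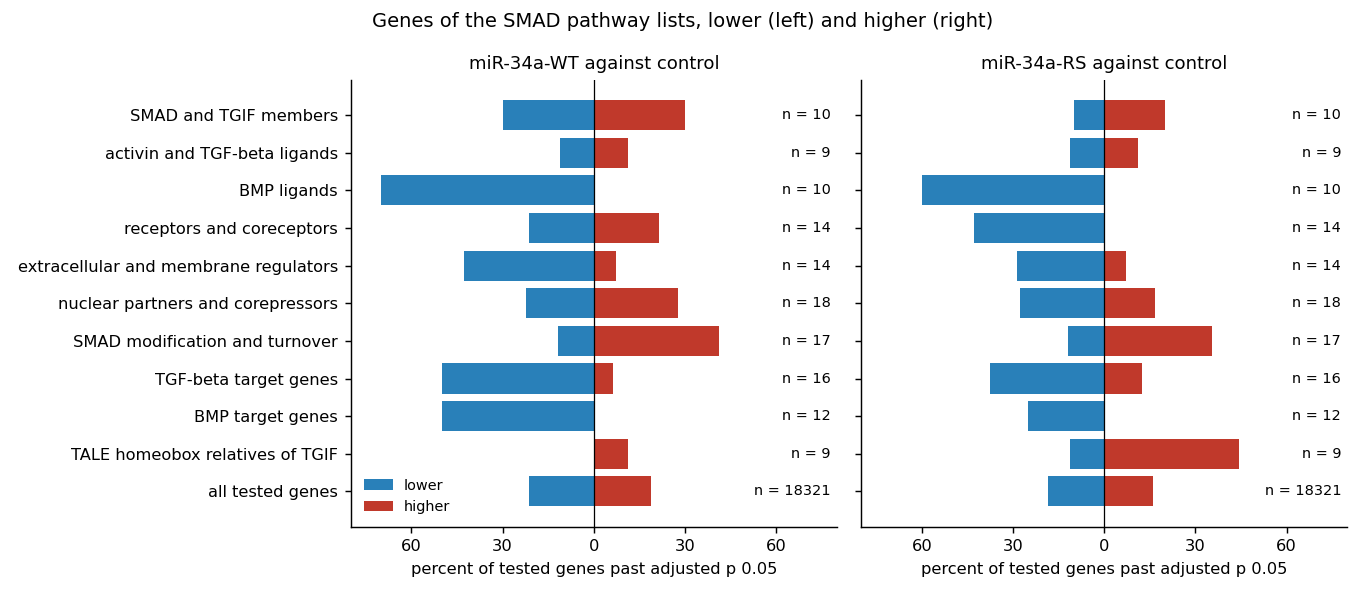
Percent of tested genes of each list past an adjusted p of 0.05 (x axis), lower to the left and higher to the right of 0, with miR-34a-WT against control on the left and miR-34a-RS against control on the right, the number of tested genes beside each bar and all 18321 tested genes in the bottom row. BMP ligands show 7 and 6 of 10 lower and none higher, genes for SMAD modification and turnover lie mostly to the right, and the 10 SMAD and TGIF genes are split.

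Between the miR-34a duplexes, 4 of the 117 listed genes passed, with 17 when the replicate number was a block, where 1.56% of all tested genes passed in the fit of group means. ACVR1B and BMP8B were higher with miR-34a-RS, BMP8B by 0.36 on the log2 scale (edgeR, adjusted p = 0.00974), and BMP8B, which also overlaps PPIE on the opposite strand, is named after its value was seen. SKI was lower with miR-34a-RS by 0.24 (edgeR, adjusted p = 0.0408). That call was lost without miR-34a-RS replicate 2 or 5 (edgeR, adjusted p = 0.173 and 0.177), without miR-34a-WT replicate 1, 3, 4 or 5 (0.0798, 0.156, 0.0959 and 0.0611) and without control replicate 2, 3 or 4 (0.0605, 0.0504 and 0.0633), as well as when the compared groups were fitted alone (0.074). Among the 18321 tested genes, 286 passed in this comparison, 188 higher and 98 lower, and 1254 passed with the block, 625 higher and 629 lower. The balance of directions turned with the GC and length trend removed, to 355 higher and 420 lower, and to 540 higher and 898 lower with the block as well.

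Genes whose profile most resembled that of TGIF2 were sought by Pearson's r of log2 CPM over the 14 libraries, among 10957 genes with at least 5 CPM, as a description only. The closest were SURF4 (r = 0.996), CDK4 (0.996), PIP5K1A (0.995) and SCD5 (0.995), whose log2 fold changes with miR-34a-WT were -1.10, -1.38, -0.65 and -1.25, and with miR-34a-RS -1.18, -1.43, -0.74 and -1.39. Reads of CDK4 overlap other genes on the opposite strand. The genes closest to TGIF1 were SF3B3 (0.977), THAP10 (0.968), CCDC74B (0.959) and FBXW9 (0.957), with log2 fold changes of 0.31, 0.37, 0.75 and 0.90 with miR-34a-WT and 0.21, 0.26, 0.52 and 0.74 with miR-34a-RS. The 14 points fall into 3 groups whose means differ, and all genes share the same libraries.

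Library totals ran from 22.24 to 36.26 M reads, and the 8 genes listed as expressed by HEK293 cells were detected in all 14 libraries, with a summed level of 468 to 538 CPM. Fibroblast genes summed to 25.2 to 34.4 CPM, with COL1A2 at 0 in all 14 libraries, and blood cell genes to 2.61 to 3.82 CPM, with PTPRC at 0 in 11 libraries. Exons of SMAD1, SMAD3, SMAD4, SMAD5 and TGIF2 are shared in small part with other annotated genes, among them SMAD1-AS1, SMAD5-AS1 and the readthrough gene TGIF2-RAB5IF. Those genes averaged at most 2.7 reads per library.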

How the data were processed

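Libraries were prepared with TruSeq RNA v2 reagents, per the labels' protocols. These do not mark strand. The authors deposited raw counts, whole numbers of reads for 63140 genes in 14 libraries. The submitters' processing notes name STAR 2.7.11a, featureCounts of Subread 2.0.3, edgeR 3.42.4 and GRCh38. The annotation release and strand setting of the counting are not given in the sources used here. Symbols came from a gene name table, or from GENCODE 29 where that table gave none, and 62595 genes had one. Of all counts, 99.71% lie on GENCODE 29 identifiers.

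The test was edgeR 4.0.16 under R 4.3.3 (TMM, filterByExpr by group, robust glmQLFit and glmQLFTest, 1 fit of 3 group means over 14 libraries). Benjamini-Hochberg adjustment ran over 18321 genes with a threshold of 0.05, and the common biological coefficient of variation was 0.0615. DESeq2 1.42.0, other scalings, no filter, a replicate block, removal of a trend on the GC content and length of 3′ UTRs, and leaving out each library were alternatives. The replicate block was fitted over all 14 libraries, so control libraries were blocked by number too. The fit was tested on simulated data. All 26 pairs of replicates differed by more than sampling noise, with a lowest chi-square of 2.73 per degree of freedom. The labels give the groups the same replicate numbers without saying what they mark. Deviations from group means, over 11259 genes, correlated at 0.373 to 0.716 for same-numbered miR-34a-RS and miR-34a-WT libraries, which were taken as pairs, and at -0.156 to 0.557 and -0.002 to 0.478 for miR-34a-WT with control and miR-34a-RS with control, which were not.

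Intervals are at the 95% level. CPM is scaled by TMM, and log2 CPM has a prior count of 2. 3′ UTRs were read from GENCODE 29 and the guide from RefSeq with Python 3.11.15. Genes named are the 10 members, the 4 genes of each list with the smallest adjusted p in any comparison and at least 1 CPM, and the 4 genes most like TGIF1 and TGIF2. Of these, 1 listed gene is not reported here. The members and lists were chosen with earlier results of these data known.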

Additional observations from a re-analysis of the deposited data

How the results depend on the processing

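The changes of TGIF2 and TGIF1 against control, and of SMAD5 and SMAD2 with miR-34a-WT against control, kept their direction and passed under all 22 alternatives to the fit. The log2 fold change of TGIF2 ranged from -0.94 to -0.81 and that of TGIF1 from 0.58 to 0.65 with miR-34a-WT. With a minimum of 0.5 in absolute log2 fold change, 2032 and 1749 genes passed with miR-34a-WT and miR-34a-RS against control and 38 between the duplexes, with 2, 1 and 0 of the 10 members and 12, 9 and 0 of the listed genes. With miR-34a-RS against control, 5 members passed with the replicate block, 5 with the GC and length trend removed (SMAD2 and SMAD6 added) and 5 with both. Over all genes in these fits, 7715 of 18321, 7093 of 13611 and 7675 of 13611 passed in the same order. When miR-34a-RS was set against miR-34a-WT, 509 genes passed in DESeq2 (279 higher, 230 lower), 1254 with the replicate block (625 higher, 629 lower), 775 with the GC and length trend removed (355 higher, 420 lower), 1438 with both (540 higher, 898 lower), and 142 to 730 when single libraries were left out, the extremes without miR-34a-RS replicate 3 and without miR-34a-RS replicate 1. Listed genes that passed there numbered 8, 17, 11 and 15 in the same order and 2 to 13 with single libraries left out, against 4, and members numbered 1 with the replicate block (TGIF1) and 0 with the block and the trend removed (TGIF1 at -0.15, adjusted p = 0.0885). Same-numbered miR-34a and control samples were not taken as pairs, as their deviations did not correlate for every number. Their mean correlation was 0.291 for miR-34a-WT and 0.274 for miR-34a-RS, against -0.071 and -0.07 for samples with different numbers. Against control, the block gave a pass to SMAD7 with miR-34a-WT (edgeR, adjusted p = 0.0417) and to SMAD4 and SMAD6 with miR-34a-RS (0.0369 and 0.0137). Values near 0 changed sign, and the cause was not tested. SMAD9 turned to -0.015 with miR-34a-WT against control (trend removed, with and without block; -0.007 to 0.038 with single libraries left out). With miR-34a-RS against control SMAD9 turned to 0.007 (DESeq2, also its size factors), 0.013 (upper-quartile factors), 0.017 (no filter), 0.010 and 0.021 (trend removed, without and with block; -0.050 to 0.029 with single libraries left out). Between the duplexes it turned to 0.001 (upper-quartile factors), 0.025 and 0.035 (trend removed, without and with block; -0.063 to 0.021 with single libraries left out). With the trend removed, without and with block, SMAD3 gave 0.017 and 0.023 and SMAD7 0.006 and 0.012 with miR-34a-RS against control. With single libraries left out, GDF11 ran from -0.013 to 0.047 and ACVR1C from -0.013 to 0.15 with miR-34a-RS against control, and SMAD4 from -0.022 to 0.051 between the duplexes. The alternatives moved the median of all genes by at most 0.031 on the log2 scale. TGIF1 had the fewest reads of the members, down to 272 in a library.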
